A study of Mus musculus with 32 samples.

Results

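The nuclear genes for the subunits of oxidative phosphorylation were examined in KPC36 pancreatic tumours of mice after carbon-ion or photon irradiation. Members were taken by symbol from the deposited gene counts: names beginning with Nduf followed by a, b, c, s or v, with Uqcr, with Cox4 to Cox8 or with Atp5, and the 4 Sdh genes, leaving out 14 names marked as pseudogenes by -ps. This gave 99 of 55103 genes, and 93 of them were among the 20474 genes that passed the filter on low counts. By complex, 38 of 41 members of complex I, 4 of 4 of complex II, 8 of 8 of complex III, 18 of 21 of complex IV and 17 of 17 of ATP synthase were tested. The rule also takes in 8 Ndufaf genes, all tested, which encode assembly factors of complex I and not subunits, and they are described apart. Ndufa4 and its paralogue Ndufa4l2, named after complex I, were placed with complex IV, where the Ndufa4 protein resides. The 6 untested members were Ndufa11b, Ndufb11b, Ndufs6b, Cox6c2, Cox7b2 and Cox8c, and Cox8c was at 0 in all 32 libraries.

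Each library came from bulk tumour tissue labelled with the line KPC36, and the 4 groups of 8 libraries were irradiated tumours of the carbon-ion arm, its untreated controls, irradiated tumours of the photon arm and its untreated controls. Carbon ions are charged particles that deposit much of their energy at the end of their track, whereas photons are the radiation of common radiotherapy. Tumours were taken on days 4 and 7, with controls at both times, but the day of a given library is not in the labels, and neither are the dose, the mouse strain or the age. Whether the 8 libraries of a group came from separate animals is not stated either, so p-values measure the spread between these libraries. All 4 groups carry the same tumour line, and the question the design poses is how tumours differ after each kind of beam.

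Oxidative phosphorylation takes place in the inner mitochondrial membrane. Complexes I and II pass electrons from NADH and succinate to ubiquinone, complex III passes them to cytochrome c, complex IV passes them to oxygen, and ATP synthase uses the resulting proton gradient to make ATP. Complex II is encoded entirely in the nucleus, while the other complexes combine nuclear subunits with a few made from mitochondrial DNA. Several subunits of complex IV exist in ubiquitous and tissue-restricted forms, so their levels in a bulk tumour also depend on which other tissues it holds.

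Library totals ranged from 13891863 to 71645903 estimated counts. The epithelial markers Krt8, Krt18, Krt19, Cdh1, Krt7 and Epcam were above 0 in every library, and markers of fibroblasts, macrophages, endothelium and pericytes were present as well. Skeletal muscle RNA varied widely: the summed level of 12 muscle genes ran from 13.76 to 4976 CPM in carbon-ion controls, 27.95 to 8635 CPM in carbon-ion irradiated, 31.73 to 5537 CPM in photon controls and 17.83 to 1224 CPM in photon-irradiated libraries. CPM is the count relative to the scaled library total. The titles carry a letter, D or M, with no explanation, and all 7 D titles belong to the carbon-ion arm (4 controls and 3 irradiated). Title numbers of photon controls end at 48 and those of photon-irradiated libraries begin at 95, while those of carbon-ion irradiated libraries end at 68. Neither a photon effect nor the difference between the irradiated groups can therefore be told apart from whatever that numbering follows. Replicate numbers used below only name a library and pair nothing. In bulk tissue, fewer cells of a type and less RNA per cell cannot be told apart.

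At the level of whole complexes, the carbon-ion irradiated libraries held the highest group mean in 5 of 6 sets of members and the photon-irradiated libraries the lowest in all 6. The mean log2 CPM of the 38 complex I members was 4.71 ± 0.16 (SD, n = 8) in carbon-ion controls, 4.80 ± 0.35 after carbon ions, 4.48 ± 0.17 in photon controls and 4.40 ± 0.22 after photons. For ATP synthase the corresponding means were 6.13 ± 0.16, 6.19 ± 0.35, 5.95 ± 0.19 and 5.77 ± 0.26. In these sets the carbon-ion irradiated group had the widest spread, and its libraries overlapped those of every other group.

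Complex III went from 5.55 ± 0.16 in carbon-ion controls and 5.67 ± 0.33 after carbon ions to 5.38 ± 0.21 in photon controls and 5.23 ± 0.22 after photons. Complex IV stood at 4.01 ± 0.26, 4.13 ± 0.30, 3.83 ± 0.36 and 3.50 ± 0.29 in the same order. Its 18 members include the muscle forms Cox6a2 and Cox8b, whose means over all libraries lie near or under 1 CPM. Without them the means of the other 16 were 4.65 ± 0.18, 4.79 ± 0.26, 4.41 ± 0.20 and 4.33 ± 0.27. The gap between the photon groups was then much smaller, and that between the irradiated groups was 0.46 in place of 0.64. Complex II stood at 6.07 ± 0.10, 6.09 ± 0.29, 5.99 ± 0.12 and 5.83 ± 0.24. The assembly factors were the exception to the order, with 2.38 ± 0.11 in carbon-ion controls, 2.37 ± 0.31 after carbon ions, 2.32 ± 0.17 in photon controls and 2.12 ± 0.15 after photons. Over the 85 structural members together, carbon-ion irradiated replicate 2 was the highest library at 5.65 and photon-irradiated replicate 3 the lowest at 4.14. These means describe the libraries and carry no test.

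**Figure D1:**
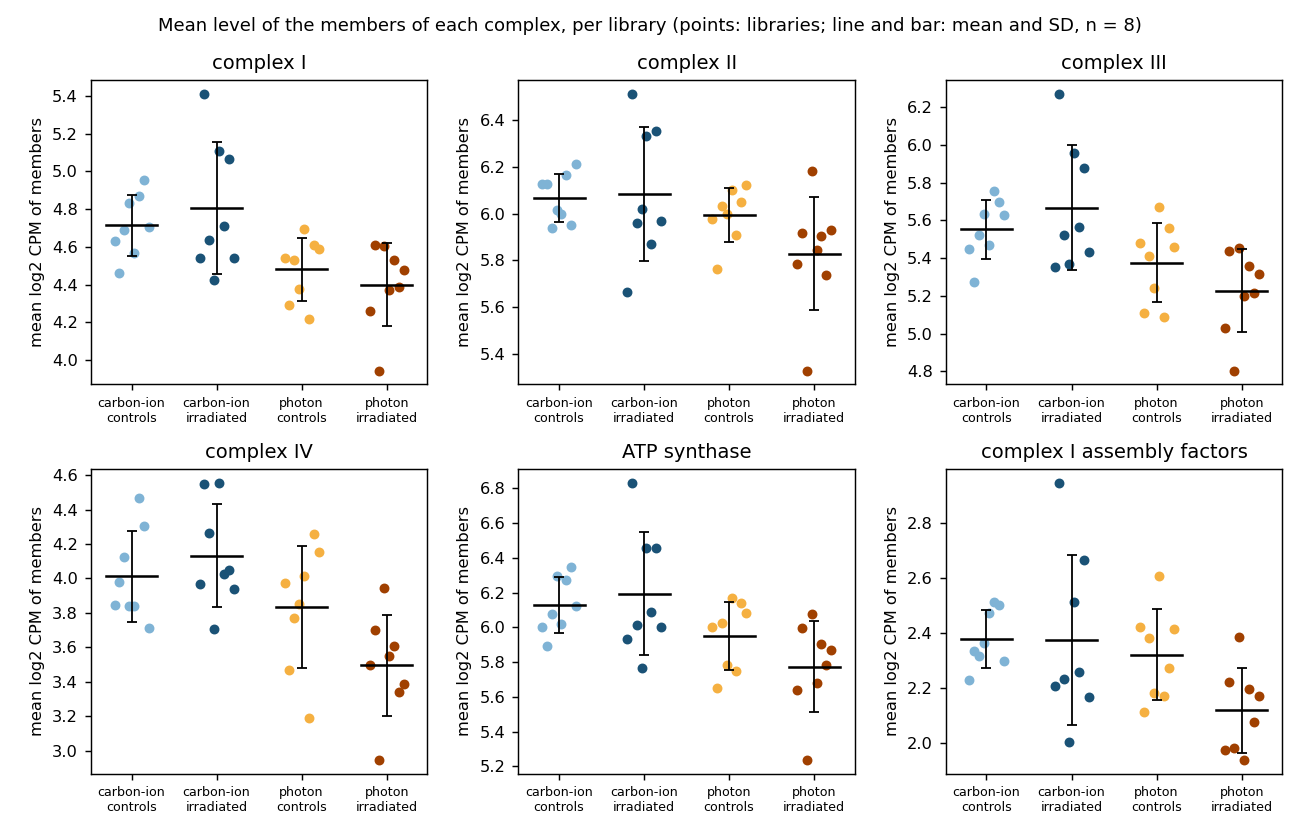
Mean log2 CPM of the tested members of each complex (y axis) in every library, by group (x axis); points are libraries, the line is the group mean and the bar 1 SD (n = 8). The highest library is a carbon-ion irradiated one in each panel, and 1 photon-irradiated library lies lowest in complexes I, II, III, IV and ATP synthase.

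The irradiated tumours of both arms differed in 33 of the 93 members, all higher after carbon ions than after photons (adjusted p under 0.05 over all genes, edgeR quasi-likelihood test). That is 35.5% of the members, against 5.08% of all genes called in either direction and 3.55% called higher. The median log2 difference was 0.42 over the members and 0.01 over all genes, and 92 of 93 members were on the positive side. The called members came from complex I (15 of 38), complex III (5 of 8), complex IV (5 of 18) and ATP synthase (8 of 17). No member of complex II (0 of 4) and no assembly factor (0 of 8) was called, although 3 of each had an unadjusted p under 0.05. DESeq2 called 53 members, all higher, among them 1 of complex II and 1 assembly factor. That is 57% of the members, against 9.86% of all genes called by DESeq2.

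The called differences were modest, from 0.39 to 0.86 with a median of 0.58 on the log2 scale. In 11 of the 33, all 8 carbon-ion irradiated libraries lay above the photon-irradiated median, in 20 it was 7 and in 2 it was 6. No member separated the irradiated groups completely, against 0.0977% of all genes that did so with higher values after carbon ions.

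**Figure D2:**
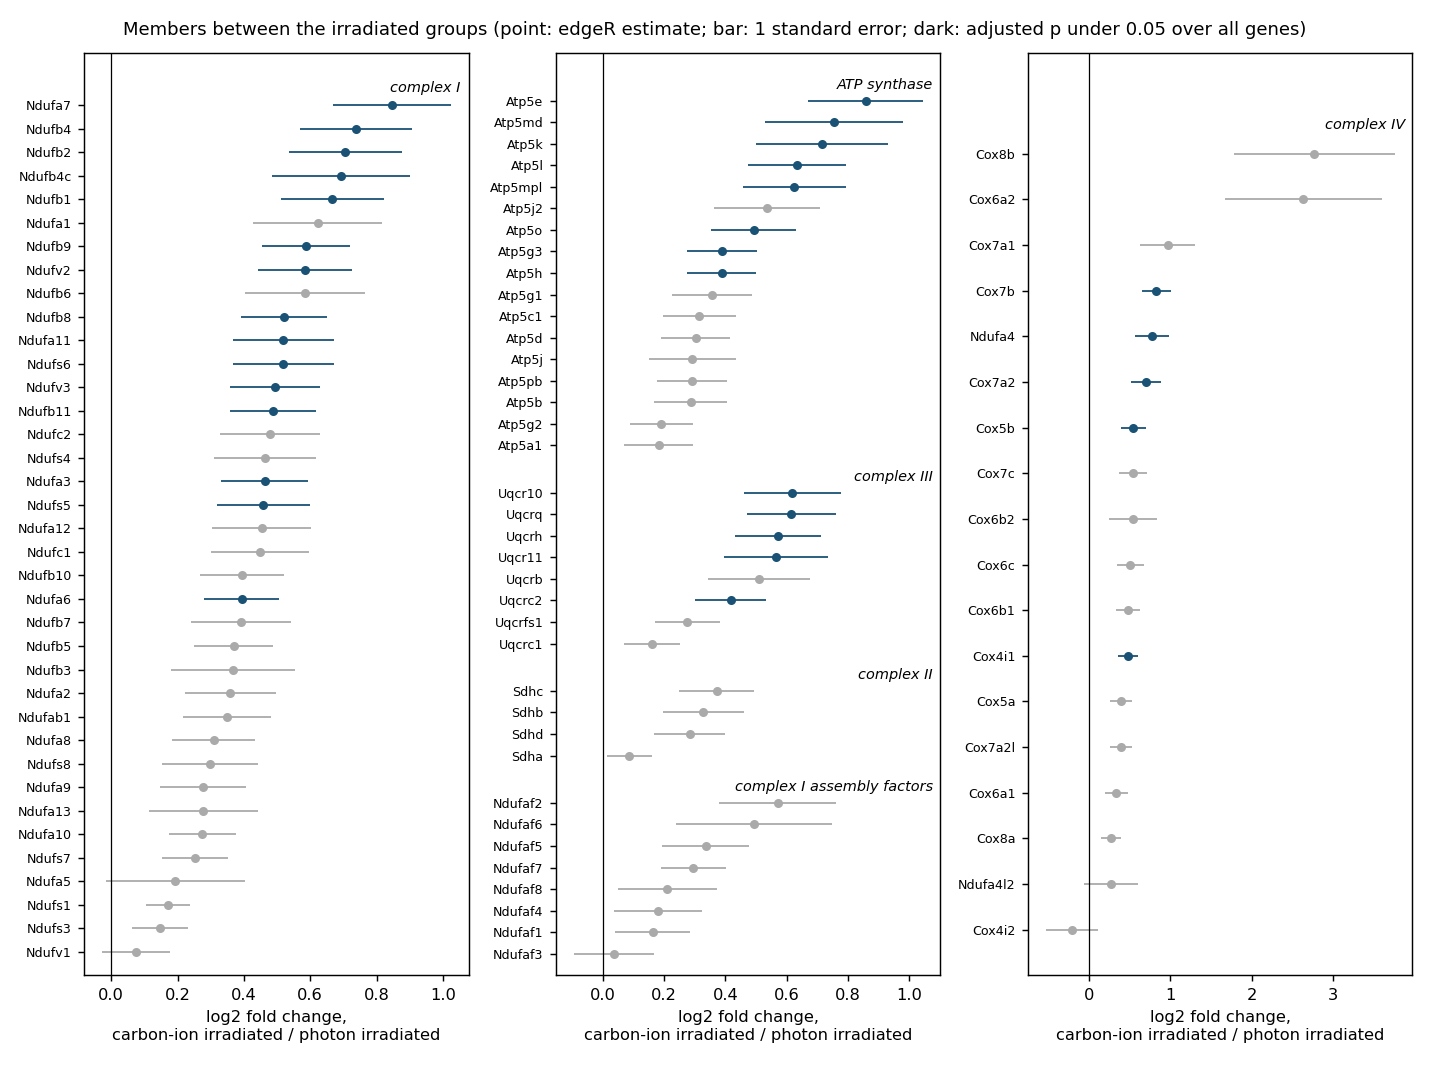
log2 fold change between carbon-ion irradiated and photon-irradiated tumours (x axis) for 92 of the 93 tested members (y axis), grouped by complex; points are edgeR estimates, bars 1 standard error, and dark points passed the adjusted threshold. Complex IV has a wider axis because its muscle isoforms Cox8b and Cox6a2 differ by 2.77 and 2.63 without passing the test.

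In complex I the called genes were mostly accessory subunits, which surround the catalytic core: 14 of 31 accessory and 1 of 7 core members were called, and the difference between those shares was not tested. Their transcript lengths differ as well, as given further below. Ndufa7, an accessory subunit, ranged from 55.7 to 207 CPM after carbon ions (median 91.5) and from 39.3 to 70.7 CPM after photons (median 56.6). The groups overlapped, with 7 of 8 carbon-ion libraries above the photon median, and the difference was 0.85 ± 0.18 (log2 ± SE, adjusted p = 0.015). Ndufb4, an accessory subunit of the membrane arm, ranged from 16.5 to 52.1 CPM (median 25.1) in the carbon-ion group and from 10.2 to 18.8 CPM (median 16.4) in the photon group, a difference of 0.74 ± 0.17 (adjusted p = 0.0197). All 8 carbon-ion libraries were above the photon median. Ndufb9, of the same arm, had medians of 41.2 and 32.1 CPM and a difference of 0.59 ± 0.13 (adjusted p = 0.0193). Ndufb8, a membrane-arm subunit often used as a readout of assembled complex I, ranged from 48.1 to 112 CPM and from 35.8 to 54.3 CPM, a difference of 0.52 ± 0.13 (adjusted p = 0.0257).

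The core subunits of complex I carry the flavin and the iron-sulfur clusters, and their differences ran from 0.07 to 0.58, against 0.19 to 0.85 for the accessory subunits. Ndufv1, which binds NADH, had a mean of 79.7 ± 14.2 CPM (SD, n = 8) with carbon ions and of 75.6 ± 13.1 CPM with photons, which differ by 0.07 on the log2 scale (adjusted p = 0.678). Ndufs1, the largest core subunit, had 53.1 ± 6.46 and 47.2 ± 2.31 CPM and a difference of 0.17 (adjusted p = 0.103). The accessory subunit Ndufa9 differed by 0.28 (adjusted p = 0.177). The called core member was Ndufv2, the iron-sulfur partner of Ndufv1, whose median was 49.96 CPM in the carbon-ion group and 38.46 CPM in the photon group, with a difference of 0.58. The median over the 7 core members was 0.25 and over the 31 accessory members 0.46.

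None of the 4 complex II genes passed. Sdha, the flavoprotein, was nearly level at 109 ± 11.7 and 103 ± 12.2 CPM (0.09, adjusted p = 0.478). Sdhb, the iron-sulfur subunit, differed by 0.33, and the membrane anchors Sdhc and Sdhd by 0.37 and 0.28, with adjusted p of 0.0631 for Sdhc, the smallest of the complex.

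In complex III the called members were the small subunits Uqcrq, Uqcr10, Uqcr11 and Uqcrh and the large core protein Uqcrc2. Uqcrq, which borders cytochrome b, ranged from 38.0 to 75.3 CPM after carbon ions (median 51.8) and from 23.2 to 50.9 CPM after photons (median 33.1). All 8 carbon-ion libraries were above the photon median, with a difference of 0.62 ± 0.15 (adjusted p = 0.0221). Uqcrh, the hinge protein near cytochrome c1, ranged from 32.2 to 77.5 CPM and from 26.5 to 37.2 CPM, a difference of 0.57 ± 0.14 (adjusted p = 0.0253). Uqcr10 and Uqcr11 differed by 0.62 and 0.57, and Uqcrc2 by 0.42. The other core protein, Uqcrc1, and the Rieske protein Uqcrfs1, which takes electrons from ubiquinol, differed by 0.16 and 0.28 and did not pass.

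In complex IV the called members were Cox7b, Ndufa4, Cox7a2, Cox5b and Cox4i1. Cox7b, a small membrane subunit, ranged from 53.9 to 158 CPM after carbon ions (median 91.1) and from 45.04 to 58.8 CPM after photons (median 49.8). Its difference was 0.83 ± 0.18 (adjusted p = 0.0162), with all 8 carbon-ion libraries above the photon median. Cox4i1, the ubiquitous form of the largest nuclear subunit, ranged from 106 to 223 CPM and from 83.5 to 128 CPM, a difference of 0.47 ± 0.12 (adjusted p = 0.0282). Ndufa4 differed by 0.77, Cox7a2 by 0.70 and Cox5b by 0.55. Cox5a, the partner of Cox5b next to the catalytic core, differed by 0.40 with an adjusted p of 0.0711, and Cox7a2l, a factor that links complexes III and IV into supercomplexes, by 0.39 with an adjusted p of 0.0733.

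In ATP synthase the catalytic F1 head and the remaining subunits differed in count: 1 of 5 F1 members and 7 of 12 others were called, a contrast that was not tested. Atp5e, the small epsilon subunit of F1, ranged from 17.99 to 61.9 CPM after carbon ions (median 34.3) and from 12.3 to 29.3 CPM after photons (median 19.02). Its difference was 0.86 ± 0.19 (adjusted p = 0.0168), with 7 of 8 carbon-ion libraries above the photon median. Atp5a1 and Atp5b, the alpha and beta subunits that form the catalytic sites, differed by 0.18 and 0.29, and Atp5c1, the central shaft, by 0.32, none past the threshold. Of the genes for the membrane ring of c subunits, Atp5g3 passed with 0.39 (adjusted p = 0.0433), while Atp5g1 (0.36) and Atp5g2 (0.19) did not. Atp5l and Atp5mpl, small membrane subunits, differed by 0.63 each, with adjusted p of 0.0263 and 0.0329.

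Single libraries moved the number of called members. Leaving out photon-irradiated replicate 3 gave 3, and without replicate 1, 7 or 5 of that group it was 4, 9 or 20. Without carbon-ion irradiated replicate 2, 5 or 7 it was 4, 6 or 14. The count grew to 50 and 59 when carbon-ion irradiated replicate 3 or 1 was the one left out. Calls over all genes moved too, from 1041 to 108 without photon-irradiated replicate 3, to 125, 278 and 872 without replicate 1, 7 or 5 of that group, to 204, 201 and 568 without carbon-ion irradiated replicate 2, 5 or 7, and to 2159 and 1840 without replicate 3 or 1 of the carbon-ion group. With both the highest and the lowest library left out, edgeR called 0 members (51 at an unadjusted p under 0.05) and the median difference was 0.27. These libraries were chosen by their member means, at the top of the carbon-ion and the bottom of the photon group. Leaving them out thus narrows this difference by the choice itself. The medians given below for the effects of either beam, and for the difference between them, move in a fixed direction for the same reason. Fitting only the 2 irradiated groups left 1 member, Cox7b, and 57 of all genes, whereas fitting only the 2 control groups raised the calls between controls. In the main fit all 4 groups shared 1 estimate of the spread, and the cause of this shift was not tested. Atp5e, Cox7b and Ndufa7 passed in each of the 16 fits that left out 1 irradiated library. The median difference of the members stayed between 0.27 and 0.50 in all 26 alternatives.

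Other RNA moved with the same comparison. All 12 muscle genes were higher after carbon ions than after photons, by a median of 3.04 on the log2 scale, with 0 of 12 called by edgeR, 3 by DESeq2 and 12 at an unadjusted p under 0.05, and the median summed muscle level was 749.2 CPM in the carbon-ion and 62.8 CPM in the photon group. Ckm was at 0 in 1 library, Myh1 and Myh4 in 3, Myh2 in 4 and Tnnc2 in 9. With the muscle level as a covariate, edgeR called 0 members (62 at an unadjusted p under 0.05) and 3 genes of all, and the median difference of the members was 0.38. Of 6 macrophage markers, 4 were called higher after carbon ions; their mean log2 CPM ranged from 5.98 to 6.85 there and from 4.92 to 6.23 after photons, with no marker at 0. All 6 epithelial markers were higher, by a median of 0.25, with 0 called by edgeR, 1 by DESeq2 and 1 at an unadjusted p under 0.05; their mean log2 CPM ranged from 8.31 to 9.39 after carbon ions and from 7.95 to 8.89 after photons. Of the fibroblast, endothelial, pericyte, T cell and adipocyte markers none was called by either tool or had an unadjusted p under 0.05. Of 9 hypoxia genes each tool called 1 higher (median -0.001). Of 6 proliferation genes neither tool called any, with 0 at an unadjusted p under 0.05 and a median of 0.21. The part of macrophages, epithelial cells, hypoxia and proliferation in the result was not tested. The title letter as a covariate left 13 members and 2.45% of all genes, and the M-titled libraries alone 22 members and 5.34% of all genes.

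**Figure D3:**
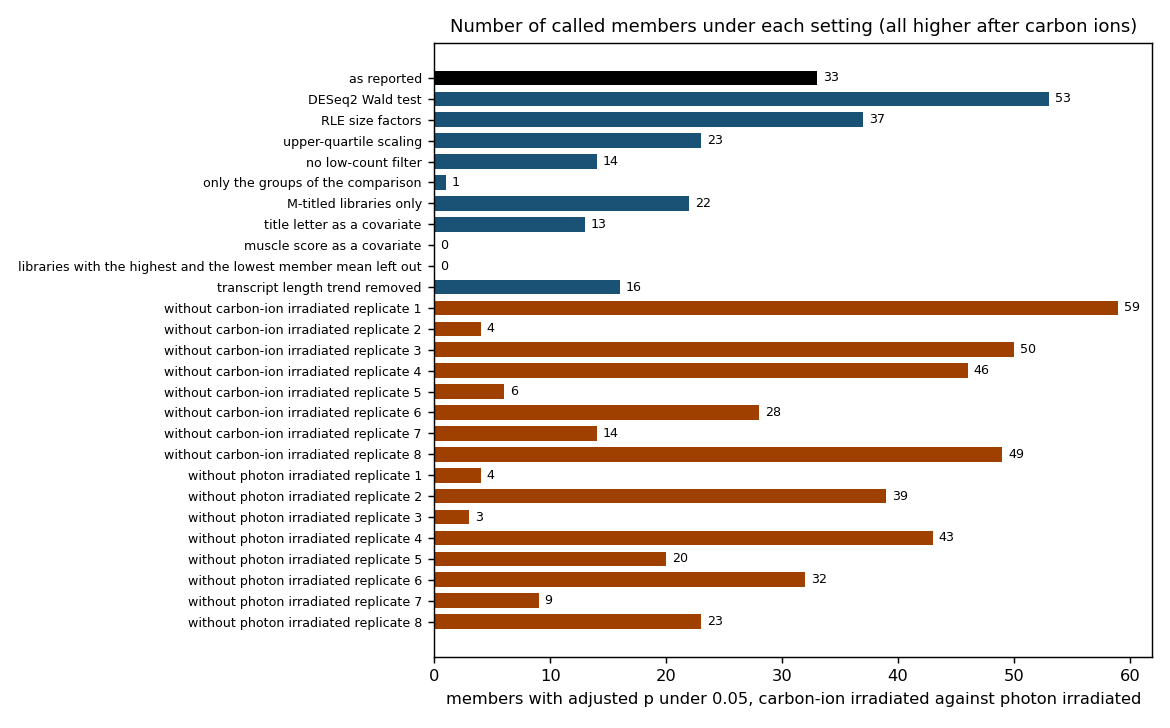
Number of members with an adjusted p under 0.05 between the irradiated groups (x axis) under each setting (y axis); the black bar is the value reported, blue bars are other tools, scalings or covariates, and brown bars leave out 1 library. The counts run from 0 to 59, all of members higher after carbon ions.

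The untreated controls of the arms already differed in 9 members: relative to the photon arm, carbon-ion controls had 8 higher and 1 lower. In the main fit that is 9.68% of the members, close to the 9.14% of all genes called (5.13% higher and 4.01% lower). The shares were 20.4% and 11.5% with only the control groups, and 12.9% and 4.6% with M-titled libraries alone. They were 22.6% and 11.7% without the highest and lowest irradiated libraries, and 5.38% and 5.28% with the title letter as a covariate. With the trend on transcript length removed they were 4.3% and 7.96%. The median log2 difference was 0.18 over the members and -0.02 over all genes. The higher members were Ndufa1, Ndufa6, Ndufb11, Ndufb9 and Ndufs7 of complex I and Cox4i1, Cox6c and Cox7b of complex IV. The lower member was Ndufaf3, an assembly factor of complex I. Complexes II and III and ATP synthase had 0 called members, with 0, 1 and 4 members at an unadjusted p under 0.05 in edgeR and 0 by DESeq2.

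Cox7b ranged from 62.8 to 151 CPM in carbon-ion controls (median 88.3) and from 31.7 to 62.8 CPM in photon controls (median 50.8), a difference of 0.95 ± 0.18 (adjusted p = 0.00151). Ndufa1, a small accessory subunit needed for assembly of the membrane arm, ranged from 7.85 to 20.2 CPM and from 4.89 to 11.1 CPM, a difference of 0.83 ± 0.19 (adjusted p = 0.00694). For both genes the ranges overlapped, and all 8 carbon-ion controls were above the photon control median. Ndufb11, a membrane-arm subunit, ranged from 31.2 to 45.7 CPM and from 22.1 to 27.05 CPM without overlap, a difference of 0.63 ± 0.13 (adjusted p = 0.00287). Ndufa6 (34.8 to 61.0 against 30.2 to 33.9 CPM) and the core subunit Ndufs7 (30.4 to 35.1 against 24.9 to 28.6 CPM) did not overlap either. These 3 are 3 of 93 members, while 0.879% of all genes were separated in that direction.

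Among the others, Ndufb9, Cox4i1 and Cox6c were higher by 0.41, 0.44 and 0.52. Ndufaf3 had means of 3.86 ± 0.639 CPM in carbon-ion controls and 5.19 ± 0.665 CPM in photon controls, a difference of -0.43 (adjusted p = 0.036). That call was lost with no low-count filter, with M-titled libraries alone and in 9 of the 16 fits without 1 control library (carbon-ion control replicate 1, 6, 7 or 8 or photon control replicate 1, 3, 5, 7 or 8). Over its 26 alternatives the adjusted p in edgeR or DESeq2 ran from 0.0114 to 0.101, and the sign did not change. Cox7b, Ndufa1, Ndufa6 and Ndufb11 passed in each of the 16 fits without 1 control library, while Cox4i1 passed in 15, Ndufb9 and Cox6c in 4 each and Ndufs7 in 0 of them, and the count ranged from 4 (without carbon-ion control replicate 7) to 10. The count was 5 without carbon-ion control replicate 6 or 8, or without photon control replicate 3 or 8. Over all genes, 1178 to 2180 were called in the fits without 1 control library. With the title letter as a covariate the member count was 5, with M-titled libraries alone 12 and with only the control groups in the fit 19. The mean log2 CPM of the muscle genes was 3.92 ± 2.80 and 4.06 ± 2.80 in the control groups, and with it as a covariate 9 members passed.

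Markers of other cell types moved with the control comparison. The mean log2 CPM of 6 fibroblast markers ranged from 8.13 to 9.64 in carbon-ion controls and from 8.75 to 10.32 in photon controls, with 2 of 6 called lower by edgeR, 3 by DESeq2 and a median difference of -0.60. For 6 endothelial markers it ranged from 3.81 to 4.95 and from 4.46 to 5.39, with 1 of 6 called lower by edgeR, 3 by DESeq2 and a median of -0.48. The 6 epithelial markers ranged from 8.44 to 9.23 and from 8.24 to 8.88, with 1 of 6 called higher by both tools and a median of 0.28. No marker of these 3 lists was at 0 in any library. Among 8 pericyte and 6 T cell markers edgeR called 0, with 3 and 2 at an unadjusted p under 0.05 and 1 in each list called lower by DESeq2, and their medians were -0.32 and -0.59. For 6 adipocyte markers the median was 1.37, with 0 called by edgeR or DESeq2 and 1 at an unadjusted p under 0.05. For 6 macrophage markers the median was 0.01, with 0 called by either tool and 0 at an unadjusted p under 0.05. Neither tool called any of 9 hypoxia genes (median 0.08, 1 at an unadjusted p under 0.05) or 6 proliferation genes (median -0.24, 0 at that level). The part of these cell types and states in the 9 calls was not tested.

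The 5 members Cox7b, Ndufb9, Cox4i1, Ndufb11 and Ndufa6 were called in the same direction between controls and between irradiated tumours, 55.6% of the 9 and 15.2% of the 33; these comparisons share no library. Over all genes, 248 were called in both in the same direction, 13.3% of those called between controls and 23.8% of those called between irradiated tumours. The difference between irradiated tumours minus that between controls equals the difference between the carbon-ion and the photon effect. By that test 0 of 93 members passed, with 7 at an unadjusted p under 0.05 and 0 by DESeq2, while 0.0781% of all genes passed. The median over the members was 0.25 against 0.02 over all genes, and 84 of 93 values were positive. Without carbon-ion irradiated replicate 2 that median was 0.15, with M-titled libraries alone 0.16, and without both the highest and the lowest library 0.06, with 59 positive values. Cox5b had the smallest p: its median was 40.9 CPM in both control groups, 45.8 CPM in the carbon-ion irradiated and 31.9 CPM in the photon-irradiated group, and its effects differed by 0.61 ± 0.21 (adjusted p = 0.213). Ndufa3, an accessory subunit of complex I, followed with 0.49 ± 0.19 (adjusted p = 0.25).

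**Figure D4:**
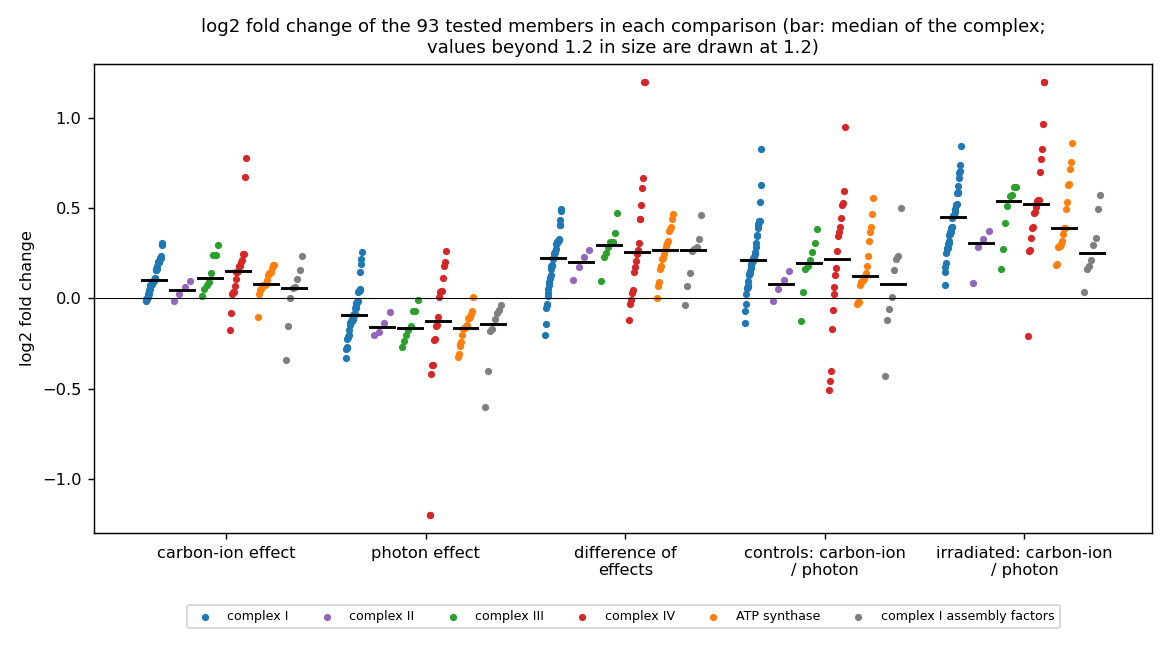
log2 fold change (y axis) of the 93 tested members in the 5 comparisons (x axis), coloured by complex; points are members, bars the median of a complex, and 6 points beyond the axis are drawn at its limit. Medians lie slightly above 0 for the carbon-ion effect and below 0 for the photon effect, and for complexes I to IV and ATP synthase they are highest between the irradiated groups.

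Carbon ions against their own controls changed no member by the test: 0 of 93 passed, as did 0% of all genes, with 3 members at an unadjusted p under 0.05 and 0 members by DESeq2, which called 17 genes. The median log2 change was 0.10 and 84 of 93 values were positive. The median was 0.01, with 48 positive values, without carbon-ion irradiated replicate 2, 0.05 and 0.06 without replicate 5 or 7 of that group, 0.02 with M-titled libraries alone and 0.06 with upper-quartile scaling; over its 26 alternatives it ran from 0.01 to 0.16. Cox6b2, the testis form of a subunit at the cytochrome c side of complex IV, had the smallest p, at 0.438 ± 0.24 CPM in controls and 0.761 ± 0.274 CPM after irradiation (0.78 ± 0.30, adjusted p = 0.682). Ndufv3, an accessory subunit beside Ndufv1, was at 33.5 ± 4.72 and 41.4 ± 11.6 CPM (0.31 ± 0.13, adjusted p = 0.777). The most abundant ATP synthase genes stayed within the spread between libraries, with Atp5b at 579 ± 51.3 and 638 ± 143 CPM and Atp5a1 at 516 ± 67 and 481 ± 98.2 CPM. All 9 hypoxia genes were higher after carbon ions (median 0.61), with 5 at an unadjusted p under 0.05. So were 5 of 6 adipocyte markers (median -3.21) and 3 of 8 pericyte markers (median -0.17). The 6 proliferation genes had a median of -0.15, with 0 at that level. Neither tool called any gene of these lists, and their part in the values was not tested.

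Photons against their own controls also gave 0 of 93 members, while 3.81% of all genes passed, with 11 members at an unadjusted p under 0.05. The median change was -0.13 and 75 of 93 values were negative. It was -0.06 without photon-irradiated replicate 3, -0.04 without both the highest and the lowest library and -0.08 with the muscle level as a covariate. DESeq2 called 2 members lower, Cox8b and Ndufaf3, which are also those with the smallest p in edgeR. That is 2.15% of the members, against 7.41% of all genes called by DESeq2. Cox8b, the heart and skeletal muscle form of a small complex IV subunit, ranged from 0 to 2.16 CPM in photon controls (median 0.589) and was at 0 in 6 of 8 photon-irradiated libraries, with at most 0.306 CPM (-3.10 ± 0.997, adjusted p = 0.0684 in edgeR). The 12 muscle genes had a median change of -2.99 in the same comparison, with 0 called by edgeR, 3 called lower by DESeq2 and all 12 at an unadjusted p under 0.05. Ndufaf3 was at 5.19 ± 0.665 CPM in photon controls and 3.93 ± 0.893 CPM after photons (-0.40 ± 0.13, adjusted p = 0.0722).

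Markers of other cell types also moved with the photon comparison. In edgeR 3 of 8 pericyte markers (median -0.55), 2 of 6 endothelial markers (median -0.44) and 1 of 6 macrophage markers (median -0.37) were lower after photons, and of 6 T cell markers 2 were lower and 1 higher. Of 6 fibroblast markers edgeR called 0, with 4 at an unadjusted p under 0.05, and DESeq2 called 1 lower (median -0.47). The mean log2 CPM of the pericyte markers ranged from 4.09 to 5.06 in photon controls and from 3.59 to 4.68 after photons, that of the endothelial markers from 4.46 to 5.39 and from 4.03 to 5.32, that of the macrophage markers from 5.78 to 6.62 and from 4.92 to 6.23, that of the fibroblast markers from 8.75 to 10.32 and from 8.49 to 9.54, and that of the T cell markers from -1.19 to 0.24 and from -1.96 to -0.98. The T cell genes Cd3d and Cd3g were at 0 in 1 library each. None of the 6 epithelial markers was called by either tool or had an unadjusted p under 0.05. All 6 proliferation genes were lower after photons (median -0.56), with 0 called by edgeR, 2 by DESeq2 and 5 at an unadjusted p under 0.05. All 9 hypoxia genes were higher (median 0.63), with 0 called by either tool and 6 at an unadjusted p under 0.05. The part of these cell types and states in the photon values was not tested.

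The photon count was 2 without photon control replicate 2 (Cox8b and Uqcrc1, both lower), 1 without photon control replicate 6 (Cox8b) and 2 without photon-irradiated replicate 4 (Cox8b and Ndufaf3). Of all genes, 8.05%, 4.52% and 4.4% were called in these fits. Fitting only the photon arm called 1 member, Ndufa6, higher by 0.26, and 4.41% of all genes. In the complete fit Uqcrc1 had a change of -0.27 with an adjusted p of 0.0791.

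The paired forms of complex IV subunits differed greatly in level, which was compared per kilobase of transcript. Averaged over all 32 libraries, Cox8a, the ubiquitous form, stood at 199 CPM per kilobase and Cox8b at 1.295. Cox6a1 stood at 163 and its muscle form Cox6a2 at 1.44, Cox4i1 at 159 and Cox4i2 at 0.588, Cox6b1 at 128 and Cox6b2 at 0.915, and Cox7a2 at 64.7 and its muscle form Cox7a1 at 1.09. These 5 restricted forms and the assembly factor Ndufaf6, at 1.402, were the 6 lowest members per kilobase. Ndufa4 stood at 116.97 and its hypoxia-responsive paralogue Ndufa4l2 at 6.27. Among all members with a length, Atp5b was the highest at 304 CPM per kilobase, followed by Cox8a and by Atp5a1 at 190.

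Ratios within 8 isoform pairs were compared between groups in 32 exact two-sided permutation tests. None passed after Benjamini-Hochberg adjustment; the smallest adjusted p of these exact tests was 0.0952, and 8 unadjusted values were under 0.05. The log2 ratio of Atp5g2 to Atp5g3, 2 genes for the same mature c subunit, was 0.46 ± 0.13 after carbon ions and 0.65 ± 0.10 after photons (n = 8 each, exact permutation p = 0.0042, adjusted 0.0952). The log2 ratio of Cox8b to Cox8a was -8.30 ± 2.34 in photon controls and -11.7 ± 1.91 after photons (exact permutation p = 0.0107, adjusted 0.0952). Cox4i2 to Cox4i1 was -8.36 ± 0.53 in carbon-ion controls and -7.54 ± 0.60 in photon controls (exact permutation p = 0.00979, adjusted 0.0952). The number of ratios past the threshold was 1 without carbon-ion irradiated replicate 4, 3 without photon control replicate 6 and 2 without photon-irradiated replicate 2.

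The muscle forms followed the muscle genes across libraries. Cox6a2 ranged from 0 to 5.66 CPM, and its log2 CPM correlated with the mean of the 12 muscle genes with a Pearson r of 0.934 and a Spearman rho of 0.936 over 32 libraries (permutation p = 1e-05 for each, the smallest that 100000 resamples can give; adjusted 4.5e-05 over 9 relations). After centring within groups r was 0.916, without the 2 libraries farthest from the median it was 0.937, and within the 4 groups it ran from 0.870 to 0.985. Cox8b gave r = 0.872 and rho = 0.874 (permutation p = 1e-05 for each), 0.832 after centring, 0.857 without 2 libraries and from 0.513 to 0.970 within groups. Cox7a1, also a muscle form, had a weaker relation, with r = 0.418 and rho = 0.471 (permutation p = 0.0173 and 0.00668, adjusted 0.0311 for r), which after centring was 0.32 (adjusted p = 0.141 by permutation) and was negative, -0.495, within the photon-irradiated group. Neither Cox7a1 (r = 0.177) nor Cox8b (r = 0.164) was related to the adipocyte markers past the threshold (permutation, adjusted p = 0.417 for each).

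Cox4i2, a form known from lung and pericytes, gave r = 0.547 and rho = 0.517 with 8 pericyte markers (permutation p = 0.00105 and 0.00263, adjusted 0.00315 for r), 0.482 after centring and 0.377 without 2 libraries. Within groups r was 0.132 after carbon ions and between 0.612 and 0.766 elsewhere. With the hypoxia genes it gave r = 0.017 (permutation p = 0.924). Ndufa4l2, which ranged from 2.06 to 15.9 CPM, gave r = 0.542 and rho = 0.430 with 9 hypoxia genes (permutation p = 0.00141 and 0.015, adjusted 0.00317 for r), 0.556 after centring and 0.457 without 2 libraries. With the pericyte markers it gave r = 0.377 and rho = 0.403 (permutation p = 0.033 and 0.0226, adjusted 0.0495 for r), 0.531 after centring and 0.172 without 2 libraries, so that pooled relation rests on those libraries. Within the carbon-ion irradiated group r was 0.196 with the hypoxia genes and -0.274 with the pericyte markers.

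**Figure D5:**
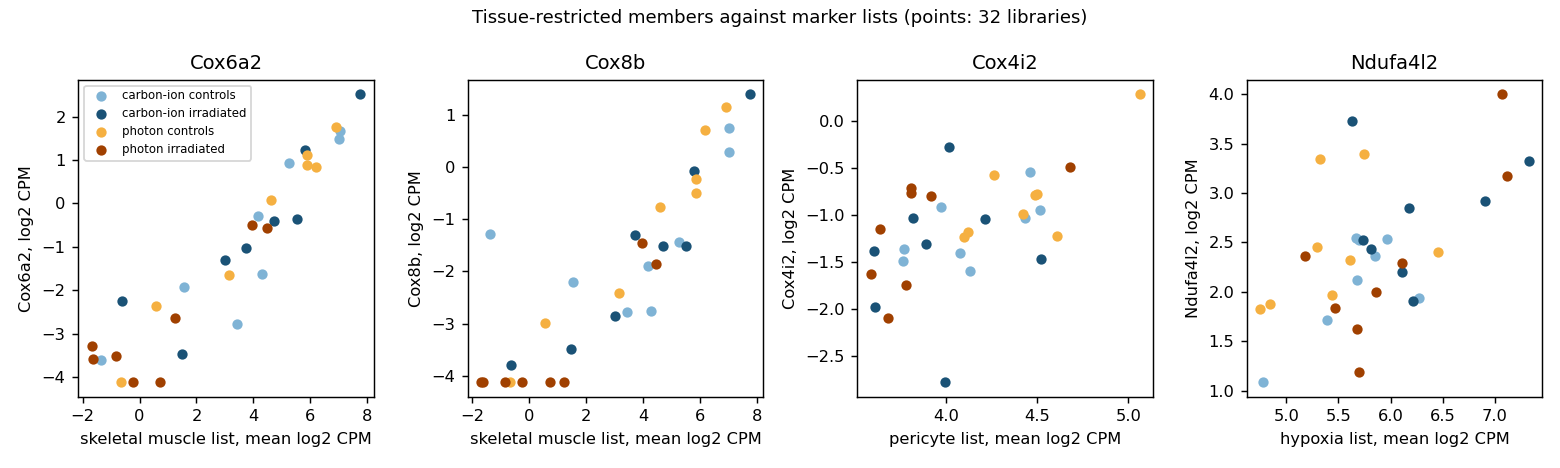
log2 CPM of 4 tissue-restricted members (y axis) against the mean log2 CPM of a marker list (x axis); points are the 32 libraries, coloured by group. Cox6a2 and Cox8b climb with the muscle list (r = 0.934 and 0.872), while Cox4i2 and Ndufa4l2 scatter more widely (r = 0.547 and 0.542).

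Most members varied together from library to library. After centring within groups, the median pairwise Pearson r over 32 libraries was 0.624 among all 93 members, 0.745 within ATP synthase, 0.729 within complex II, 0.680 within complex I, 0.664 within complex III, 0.411 within complex IV and 0.362 among the assembly factors. These values describe libraries that share depth and scaling and carry no test. The members least like the mean of the other structural subunits were Ndufa4l2 (-0.159), Cox6b2 (-0.113), Cox4i2 (-0.039) and Cox8b (0.280), and the assembly factor Ndufaf3 had 0.332. Uqcr10, a small subunit of complex III, was the most alike at 0.945. Outside the members, genes among the most like the structural mean without centring were Coa3 (r = 0.942), an assembly factor of complex IV, Mrpl54 (0.941) of the mitochondrial ribosome, Nme2 (0.937), a nucleoside diphosphate kinase, and Naca (0.936), a chaperone of nascent chains.

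Other genes of the pathway were counted in the same comparison of the irradiated groups. Of 13 subunits encoded in mitochondrial DNA, 2 were higher after carbon ions, with a median difference of 0.60; between controls 3 of 13 were higher, with a median of 0.43. Of 40 assembly factors outside the rule 7 were higher (median 0.19), of 24 import components 5 (median 0.32) and of 78 mitochondrial ribosome genes 10 (median 0.32). Of 14 genes of pyruvate entry 1 was higher (median 0.21). These are edgeR calls, against 3.55% of all genes called higher. DESeq2 called 5 of the subunits from mitochondrial DNA and 14 of the assembly factors higher. It also called 9 import components, 26 mitochondrial ribosome genes and 3 genes of pyruvate entry higher. None of 13 tricarboxylic acid cycle enzymes (median 0.21) and none of 14 regulators of mitochondrial biogenesis (median 0.05) passed in edgeR, with 5 and 3 at an unadjusted p under 0.05 and 1 in each list called by DESeq2. The cytosolic ribosome, which is no part of the pathway, had 48 of 81 genes higher and a median of 0.51, so calls in that direction were not limited to mitochondrial genes.

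The members have short transcripts, with a median principal transcript of 849.5 nucleotides against 2982 over the coding genes tested (90 of 93 members had one). In classes that do not overlap, among coding genes of at most 700 nucleotides, 27.6% were called higher after carbon ions, of up to 1000 nucleotides 17.1%, of up to 2000 nucleotides 6.72%, of up to 4000 nucleotides 2.88% and of longer ones 1.31%. The members called in these classes were 18 of 34, 7 of 19, 5 of 28, 0 of 7 and 1 of 2. Each of the 3 shortest classes thus had a larger share of called members than of all coding genes, and a test of that difference was not made. Complex I core transcripts have 983 to 2661 nucleotides, and among called accessory members only Ndufv3 (1582) and Ndufb2 (4371) exceed 971. In F1, the called Atp5e has 421 and the others 1166 to 2471. In complex III, the called Uqcrq and Uqcrc2 have 1521 and 1896, and the uncalled Uqcrb 535. The part of length in these contrasts was not tested. With the trend on transcript length removed from every library, 16 members and 2.92% of all genes passed between the irradiated groups, with a member median of 0.39. Between controls 4 members and 7.96% of all genes passed, with a member median of 0.11.

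Promoters are shown for 5 members that moved together in the irradiated comparison, chosen after their values were seen: the first 3 hold a motif match and the last 2 do not. The starts shown lie within 5 bases of the annotated transcript starts. Each line gives the 120 bases before the start, 5′ to 3′ on the strand of the gene, from RefSeq on GRCm38.p6; capitals mark a match to a binding motif of NRF1 or of an ETS factor, families known to act on genes of the respiratory chain. Atp5e is at chr2:174464102-174464221 (minus strand), Uqcrh at chr4:116075071-116075190 (minus), Ndufa11, an accessory complex I subunit with a difference of 0.52, at chr17:56717642-56717761 (plus), Cox7b at chrX:106015580-106015699 (plus) and Ndufa7 at chr17:33824452-33824571 (plus).
Atp5e: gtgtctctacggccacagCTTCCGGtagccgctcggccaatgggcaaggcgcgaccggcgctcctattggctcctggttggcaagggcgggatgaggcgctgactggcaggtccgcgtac
Uqcrh: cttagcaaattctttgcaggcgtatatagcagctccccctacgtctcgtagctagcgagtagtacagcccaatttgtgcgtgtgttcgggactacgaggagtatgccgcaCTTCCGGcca
Ndufa11: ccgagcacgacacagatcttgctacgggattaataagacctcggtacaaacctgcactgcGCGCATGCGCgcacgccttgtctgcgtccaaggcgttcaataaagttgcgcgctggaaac
Cox7b: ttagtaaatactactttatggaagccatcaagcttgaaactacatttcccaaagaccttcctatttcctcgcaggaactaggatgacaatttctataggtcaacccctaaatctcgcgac
Ndufa7: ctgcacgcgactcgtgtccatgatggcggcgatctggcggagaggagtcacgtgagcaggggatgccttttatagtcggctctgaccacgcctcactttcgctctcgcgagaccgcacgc
The motif in Ndufa11 is that of NRF1, those in Atp5e and Uqcrh are of the ETS kind on the opposite strand, and the windows of Cox7b and Ndufa7 hold none of the motifs searched.

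Over the 77 members with a promoter in that table, windows of 250 bases before to 50 after the start were searched on both strands. The motif of NRF1 occurred in 24.7% of members, 9.53% of all tested genes and 5.19% of all 27025 promoters. The ETS motif CCGGAAG occurred in 24.7%, 17.2% and 9.93%, and the motif of YY1 in 6.49%, 2.29% and 1.17%. At least 1 of these was present in 48.1%, 26.2% and 14.8%. Among the 27 members that were higher after carbon ions and had a promoter, 33.3% held the NRF1 motif, 25.9% the ETS motif, 3.7% the YY1 motif and 51.9% any of them. Among the other 49 tested members the shares were 20.4%, 24.5%, 8.16% and 46.9%. These shares are descriptions, and the difference between called and other members was not tested.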

How the data were processed

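Bulk tumour RNA was sequenced in 32 libraries, 8 in each of 4 groups named by the treatment label. Per the labels' protocols, RNA came from tissue kept in RNAlater and libraries from an Illumina stranded mRNA kit. Per the submitters' processing notes, FastQC 0.12.0, Trimmomatic 0.32, RSEM 1.3.3 and the build mm10 were used; which annotation and strand setting were used is not given in the sources used here, so overlapping genes and near-identical copies are uncertain. The authors deposited estimated counts per gene in 1 table; no value above 0 was whole, and values were rounded before testing. No sample column was left out.

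Counts were fitted in R 4.3.3 with edgeR 4.0.16 (filterByExpr with a minimum count of 10, TMM scaling, glmQLFit and glmQLFTest, 1 coefficient per group over 32 libraries), with p-values adjusted by Benjamini-Hochberg over 20474 genes and a threshold of 0.05. Standard errors come from the quasi-likelihood F. log2 CPM used a prior count of 2, and isoform ratios added 0.5 to each count. Totals per library ranged from 13891863 to 71645903, so precision is lowest for members under 1 CPM. Alternatives included DESeq2 1.42.0, other scalings, no filter, covariates and leaving out each library; removing the length trend, leaving out the highest and lowest library and a complex IV mean without Cox6a2 and Cox8b were added after seeing the data. On data simulated for the irradiated comparison, the fit recovered 50% of 100 genes with a true log2 change of 0.5. It recovered 87% of 100 genes with a change of 1, with 4 false calls. Smaller changes, in the range of most member medians, were not simulated, so counts of 0 do not show that members were unchanged. Transcript lengths came from the GENCODE annotation of GRCm38 and promoters from RefSeq GRCm38.p6, which held 77 of the 99 members.

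Named genes are a set fixed by role; every called member where a complex has at most 6, otherwise the 3 with the smallest p in each direction; the 2 smallest p where none was called; and the 5 other genes most like the structural mean; 1 gene of the first set and 1 of the last are not reported here. The members and lists were chosen with earlier results of these data known. Ndufv2, Ndufa11, the extremes of covariation and the promoters shown were picked after their values were seen.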

Additional observations from a re-analysis of the deposited data

Results flagged for a closer look

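In 232 groups of 8 libraries, formed by 52 members and by the mean of each of the 6 sets of members in the 4 treatment groups, the highest or lowest library stood apart from its group by Dixon's criterion in 14, against about 12 that chance gives. Values are log2 CPM. In photon-irradiated replicate 3, which had the lowest mean of all members, 7 genes lay below the other 7 libraries: Cox6b1 at 5.24 (next 5.88), Cox6b2 at -1.98 (next -1.09), Cox7a2 at 4.02 (next 4.83), Ndufa6 at 4.85 (next 5.25), Ndufa9 at 4.72 (next 5.32), Ndufb11 at 4.16 (next 4.67) and Ndufb4 at 3.37 (next 3.84). In carbon-ion irradiated replicate 2, Ndufb4 was high at 5.70 (next 4.83).

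Among the controls, Ndufa6 was high in carbon-ion control replicate 7 at 5.93 (next 5.50) while Uqcrc1 was low in the same library at 6.36 (next 6.62). Uqcr11 was low in carbon-ion control replicate 2 at 4.17 (next 4.94). In the photon controls, Atp5a1 was low in replicate 2 at 8.48 (next 8.79), Ndufv3 low in replicate 6 at 4.46 (next 4.78) and Cox4i2 high in replicate 3 at 0.28 (next -0.58), the library with the highest pericyte marker level of its group.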

How the results depend on the processing

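The carbon-ion effect and the difference of effects gave 0 called members under every alternative run (26 and 41). Between the irradiated groups the count of 33 became 53 with DESeq2, 14 with no low-count filter, 1 with only those groups in the fit, 13 with the title letter and 0 with the muscle level as a covariate, 0 without the highest and lowest libraries and 16 with the length trend removed; leaving out 1 library gave 3 to 59. Calls over all genes were 1041 in the main fit, 2018 with DESeq2 and 319 with no filter. They were 57 with only those groups, 502 with the title letter and 3 with the muscle level. Without the highest and lowest libraries they were 33, and with the length trend removed 597. RLE size factors (37) and upper-quartile scaling (23) moved the member count by less than 1.5 times. Between controls the count of 9 became 5 with no filter, 19 with only those groups, 5 with the title letter as a covariate, 21 without the highest and lowest irradiated libraries and 4 with the length trend removed, and 4 to 10 when 1 library was left out. Calls over all genes went from 1871 to 1383, 2219, 1081, 2400 and 1630 in the first 5 of these settings. The photon count of 0 became 2 with DESeq2 and 1 with only the photon arm, and 0 to 2 when 1 library was left out. Calls over all genes went from 781 to 1518 with DESeq2 and 852 with only the photon arm. The cause of these shifts was not tested. Ratios past the threshold numbered 0 to 3 when 1 library was left out, and marker relations past it after centring stayed at 5 with a smaller prior count. The level differences of the complexes, from 0.25 to 0.64, moved by less than 1 SD under upper-quartile scaling, with members of at least 10 CPM and, for complex IV, without Cox6a2 and Cox8b.

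Between the irradiated groups the sign turned for Ndufv1 without the highest and lowest libraries (-0.01) and for Cox4i2 with M-titled libraries (0.17), the title letter (0.02) and the muscle level (0.05); none of these passed. No paired analysis was possible because the replicate numbers follow the order of the accessions and pair no libraries. Depth limits Cox8b, Cox6a2, Cox4i2, Cox7a1 and Cox6b2, whose means over all libraries lay near or under 1 CPM. In single libraries Cox6a2 reached 5.66 and Cox8b 2.56 CPM.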
